A study of Mus musculus with 12 samples.

Results

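Wild-type TT2 cells, a mouse embryonic stem (ES) cell line, were followed through 72 hours of retinoic acid (RA) treatment. The comparison took 6 of the 12 RNA-seq libraries of the series, chosen by their titles: 3 of wild-type cells after RA and 3 of wild-type cells kept undifferentiated. Undifferentiated cells grew on gelatin in a medium that held leukaemia inhibitory factor (LIF), knockout serum replacement and FBS, a condition that the series names Serum/LIF and that is written serum/LIF here. Treated cells were given the same medium with 5 µM RA and with LIF left out, so that the effect of RA and that of LIF withdrawal cannot be told apart. The other 6 libraries came from a double knockout (DKO) of Rlf and Zfp292 under the same conditions. They helped to estimate the spread. The response of DKO cells was compared for 12 genes, and for 8 of them it differed from that of wild type in limma's interaction test, which 30.8% of all genes tested passed. The labels describe biological replicates and do not say whether these were separate clones. No vehicle control and no earlier time point was among the libraries used here.

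RA is the active form of vitamin A. It binds the nuclear receptors RARα, RARβ and RARγ, which sit on DNA as partners of the RXR receptors and switch from repression to activation when RA is bound. Cells given RA therefore induce genes that carry receptor sites, including the CYP26 enzymes that degrade RA and RARβ itself. In the embryo, RA from the trunk gives posterior identity to the hindbrain and spinal cord, largely through the Hox genes, while the forebrain forms where RA is low. In ES cells RA ends the pluripotent state that LIF helps to hold, and the cells enter neural, endodermal and other fates.

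The 6 libraries held 30869766 to 40236799 reads in genes and 2186422 to 3121854 in repeats. Values are normalized counts, that is reads divided by a size factor of the library. They are not divided by gene length, so levels are compared between libraries and not between genes. The treatments lay apart along the first principal component, with 89.5% of the variance among the 6 libraries. On the second, with 3.03%, replicate 2 of the RA group lay at −38.0 and the other RA replicates at 18.9 and 19.5. That library stood apart in the values as well. Of 14102 genes with a mean of 20 or more, 36 were over 4-fold above both other RA replicates in it, against 0 genes in each of the other 5 libraries. The ribosomal RNA repeats LSU-rRNA_Hsa and SSU-rRNA_Hsa, Lars2 and the small RNA Rn7sk were high in it. The ribosomal repeat 5S was level, at 475, 452 and 446 in RA replicates 1, 2 and 3. Lars2, a mitochondrial leucyl-tRNA synthetase gene, stood at 78315 normalized counts, against 6289 and 6012 in its replicates. LSU-rRNA_Hsa stood at 772744, against 50033 and 47434. Whether the reads counted for Lars2 came from its mRNA was not tested. Genes of mature brain cells were high in it too: of 22 such genes, listed after their values had been seen, 19 were highest there among the RA replicates. The other 3, the glial genes Mog, Gfap and Aqp4, were not. The summed counts of all 22 genes were 1448, 4574 and 1380 in the RA replicates and 907 to 1060 in serum/LIF. Of the 22 genes 2, 0 and 1 were at 0 in RA replicates 1, 2 and 3. Grin2b, a glutamate receptor subunit gene, stood at 12.6, 263 and 7.18, and Snap25, a gene of synaptic vesicle release, at 45.9, 293 and 48.4. The part of this library in the results was measured by leaving it out. Among 524 genes of the lists below, 7 then lost their call and 4 gained one, and those named here are given where they come up.

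**Figure D1:**
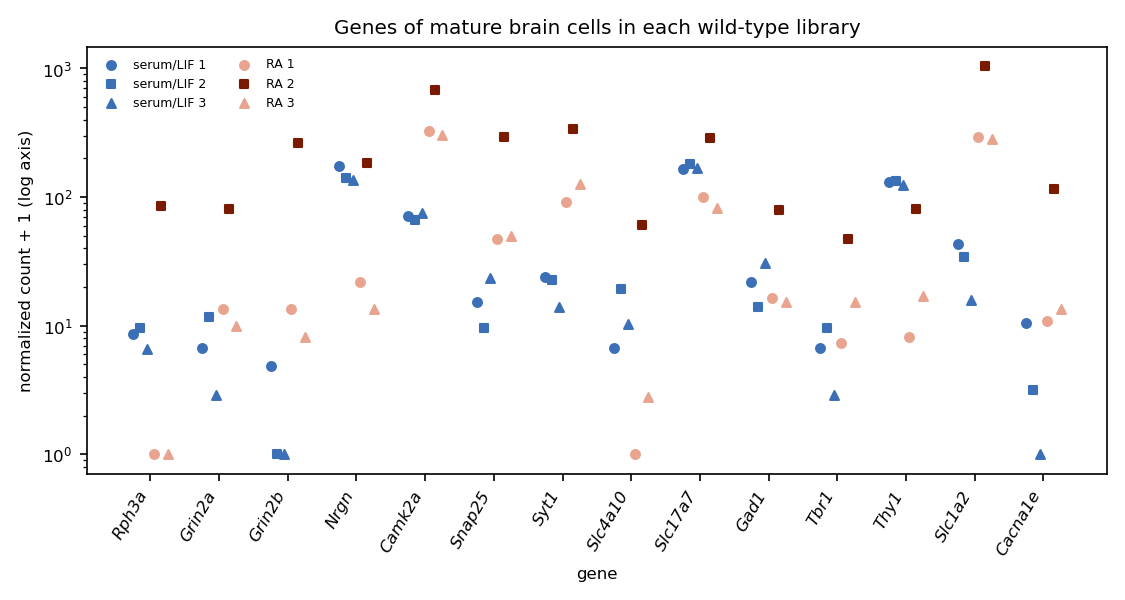
Normalized counts plus 1 (log axis) of 14 of the 22 genes of mature brain cells in each of the 6 wild-type libraries, all from the 19 that were highest in RA replicate 2. Replicate 2 of the RA group (dark squares) therefore lies above both other RA replicates (pale symbols), with Grin2b at 263 against 12.6 and 7.18.

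Most of the transcriptome differed between the conditions. Of 15750 genes tested, 12695 (80.6%) passed limma's test at a Benjamini-Hochberg adjusted p under 0.05 and are called changed here. Of these, 6515 were higher (41.4%) and 6180 lower (39.2%). A change of at least 1 on the log2 scale was found upward for 3486 genes (22.1%) and downward for 2557 (16.2%). A fold change of 3 or more on the log2 scale was reached by 900 genes upward (5.71%) and by 489 downward (3.10%). The median over all genes tested was 0.04. These shares are the background against which each gene group has to be read. A gene nearly absent before or after RA could pass the filter on low values through the other condition. In lists with such genes the counts are partly set by the filter. The split also depends on the scaling: the normalized total after RA was 83.5% of that in serum/LIF, and with equal totals 8135 genes were higher, 4766 were lower and the median was 0.29. The 100 most abundant genes took 18% ± 0.26 (SD, n = 3) of the total in serum/LIF and 14.1% ± 0.22 after RA. In the authors' deposited table, which holds their own test of the same libraries, 6662 genes were higher and 6281 lower, and 6417 of the higher and 6110 of the lower genes were called the same way in both.

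Genes known to answer to RA directly were among those that rose most. Cyp26a1 (NM_007811.2, mm10 chr19:37697808-37701536) encodes the enzyme that clears RA. It stood at 57.3, 69.8 and 72.9 normalized counts in serum/LIF and at 18035, 18517 and 18138 after RA. The groups were far apart, with replicates of a group close together. The ratio of the means was 273, and the log2 fold change was 8.08 ± 0.09 (SE; limma adjusted p = 6.58e-26). Rarb (NM_011243.2, chr14:16430839-16575476) encodes the RA receptor β and is itself a receptor target. Its counts were 17.2, 23.6 and 11.2 in serum/LIF and 2553, 2383 and 2625 after RA, a ratio of 145 without overlap (log2 fold change 7.16 ± 0.33, limma adjusted p = 6.48e-10).

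The upstream sequences of these 2 genes are shown because each holds a copy of the element that RAR and RXR bind, a pair of hexamers in the same orientation with 5 bases between them (a DR5 repeat). The 250 bases before each RefSeq start (GRCm38.p6, the build called mm10) are given 5′ to 3′ along the gene's strand, with the repeat in capitals. They lie at chr19:37697558-37697807 on the plus strand for Cyp26a1 and at chr14:16575477-16575726 on the minus strand for Rarb.
Cyp26a1: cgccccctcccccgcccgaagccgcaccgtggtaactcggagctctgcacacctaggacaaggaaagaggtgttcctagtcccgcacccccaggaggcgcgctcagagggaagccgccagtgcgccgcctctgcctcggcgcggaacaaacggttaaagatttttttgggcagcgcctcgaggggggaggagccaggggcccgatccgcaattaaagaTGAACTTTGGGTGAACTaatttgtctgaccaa
Rarb: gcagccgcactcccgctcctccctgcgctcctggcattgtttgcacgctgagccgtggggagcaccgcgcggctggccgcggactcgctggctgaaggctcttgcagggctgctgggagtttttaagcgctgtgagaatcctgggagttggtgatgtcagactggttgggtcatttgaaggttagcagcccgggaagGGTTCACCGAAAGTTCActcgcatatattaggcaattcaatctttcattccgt
In Cyp26a1 the repeat runs from 32 to 16 bases before the start and reads along the opposite strand, and in Rarb it runs from 53 to 37 bases before the start along the gene's strand.

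The search took as half-sites the consensus AGGTCA, the form AGTTCA that both genes hold, a further variant GGGTCA and the form GGTTCA that Rarb holds, in any pair, with a spacer of 5 bases (DR5) or 2 bases (DR2), on both strands of those 250 bases. Both spacers share their hexamers and were counted apart. Of the 15750 genes tested, 12386 had a RefSeq promoter in the table used. A DR5 was found in 9 of them (0.0727%) and a DR2 in 13 (0.105%). Of the 900 genes that rose by at least 3 on the log2 scale, 636 had a promoter and 3 of these held a DR5 (0.472%), namely Cyp26a1, Rarb and Ppbp, named for this match. In all 17417 promoter windows, 12 held a DR5 (0.0689%). The half-sites searched included the forms that Cyp26a1 and Rarb hold, so the matches of these genes were fixed by that choice. The share among the genes that rose is therefore not independent of the search. The counts are too small for a comparison, and sites further from the start or with other letters were not searched.

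Of 18 genes for the transport and metabolism of retinoids, 14 rose, 3 fell and 1 was not called, and 12 rose by 1 or more on the log2 scale, against 22.1% of all genes. Their median log2 fold change was 2.60 (0.04 over all genes). Cyp26b1, the second enzyme that degrades RA, had the largest fitted log2 fold change of all called genes whose mean after RA was at least 100, predicted genes left out. It had 8.59, 21.5 and 9.35 normalized counts in serum/LIF and 12116, 11892 and 12708 after RA. That is 931 times the serum/LIF mean (log2 fold change 9.87 ± 0.36). Dhrs3 encodes a reductase that turns retinaldehyde back into retinol. It went from 18.1, 21.5 and 31.8 to 8448, 8367 and 7841, a log2 fold change of 8.41 ± 0.15, again with no overlap.

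Genes for uptake and binding rose too. Stra6, the receptor gene for retinol uptake, was at 58.3, 64.5 and 40.2 in serum/LIF and at 7483, 7621 and 7905 after RA (7.14 ± 0.13). Crabp2, whose protein carries RA to the receptors in the nucleus, rose from 526, 552 and 619 to 11409, 11539 and 10794 (4.31 ± 0.05). Crabp1, the other cellular RA-binding protein gene, rose less, by 1.57 ± 0.10. The enzymes that make RA from retinaldehyde moved apart: Aldh1a1 and Aldh1a2 rose by 5.07 and 1.82 on the log2 scale and Aldh1a3 fell by 1.60. Rdh11, a retinol dehydrogenase gene, fell by 0.37, and it was not called with equal totals. Fabp5, whose protein also binds RA, changed by −0.21. It was no longer called without RA replicate 3 (log2 fold change −0.14) and changed sign with equal totals (0.05). Dgat1, a retinol-esterifying enzyme gene, was not called.

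The receptors themselves moved in different directions. Of 12 receptor and cofactor genes 7 rose and 5 fell, beside 41.4% and 39.2% of all genes, with a median of 0.38. Rarg, the receptor gene typical of undifferentiated ES cells, stood at 6653, 6572 and 6754 normalized counts in serum/LIF and at 1132, 1205 and 1155 after RA. It was thus 5.72-fold lower (log2 fold change −2.52 ± 0.04), while Rarb rose as given above. Nrip1, a corepressor gene that RA induces, was 8.43 times higher, and Rxra, an RXR partner gene, rose by 1.33. Rxrg fell from 64.9, 63.4 and 65.5 to 21.6, 9.03 and 12.6 (−2.17 ± 0.52, limma adjusted p = 0.000581). Of the cofactors, Ncoa3, a coactivator gene, fell by 0.90 on the log2 scale.

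**Figure D2:**
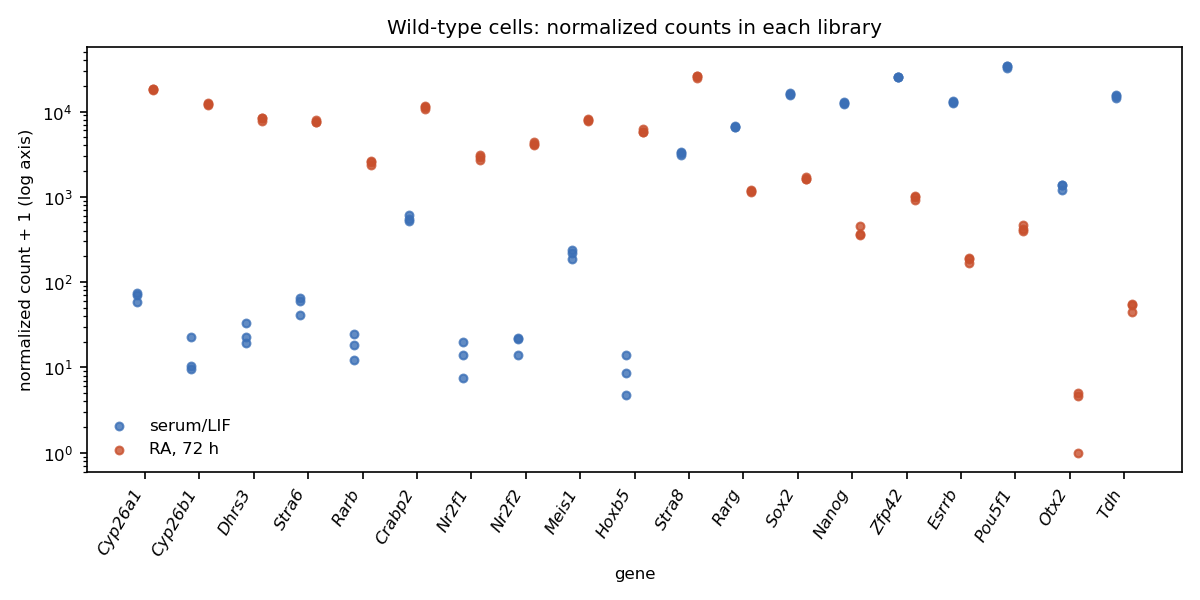
Normalized counts plus 1 (log axis) of 19 genes in the 3 serum/LIF (blue) and 3 RA (red) libraries of wild-type cells. From Cyp26a1 to Stra8 the RA points lie above the serum/LIF points, and from Rarg to Tdh below them. Otx2 reaches 0 in 1 RA library.

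Transcription factors and other genes known to be induced by RA rose without exception among those tested. Of 16 listed, 15 passed the filter and 15 rose, each by the adjusted test, against 41.4% of all genes, with a median of 4.93. Egr2 was below the filter. The orphan receptor genes Nr2f1 and Nr2f2 rose by 7.82 ± 0.38 and 7.80 ± 0.15. Nr2f2 went from 21.0, 12.9 and 20.6 normalized counts to 4186, 4000 and 4358, with the groups well separated. Zfp703, a zinc finger gene, was at 105 times its serum/LIF mean and Tshz1, another zinc finger gene of trunk patterning, at 81.3 times. Stra8, which licenses germ cells for meiosis, was already at 3119, 3340 and 3268 in serum/LIF and reached 25810, 25950 and 24602 (2.97 ± 0.04). Nr6a1, an orphan receptor gene, rose by 0.28, and Cdx1, a caudal homeobox gene, by 2.22.

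Hox genes lie in 4 clusters whose order along the chromosome matches the order of their domains along the body. The table held 35 Hox genes, of which 32 were tested and 28 rose, against 41.4% of all genes, with a median of 6.28. Hox genes near 0 in serum/LIF could pass the filter through the RA libraries, so this count is partly set by the filter. Paralogues 1 to 5, of the hindbrain and neck, rose in 15 of 15 cases with a median of 7.20, which was the same with Hoxd3, at 0 reads in serum/LIF, set at its bound. Paralogues 6 to 9, of the trunk, rose in 11 of 12 cases (median 6.60), and Hoxa9 was not called (1.26 ± 0.64, limma adjusted p = 0.0727). Without serum/LIF replicate 2, the highest of its group, Hoxa9 was called higher (1.79). Of the 8 genes of paralogues 10 to 13 in the table, 3 were below the filter, 2 rose, 1 fell and 2 were not called.

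Hoxb5 (NM_008268.2, chr11:96303512-96306121), a gene of the posterior hindbrain, stood at 7.64, 12.9 and 3.74 normalized counts in serum/LIF and at 5737, 6270 and 5819 after RA. This was 734 times the serum/LIF mean and a log2 fold change of 9.49 ± 0.42 (limma adjusted p = 8.94e-09). Hoxd3 had 0 reads in all 3 serum/LIF libraries and 787, 797 and 701 normalized counts after RA. With 3 counts over the group in place of 0, that was at least 774-fold higher. Hoxb1, a gene of the fourth rhombomere, rose from 88.8, 88.1 and 101 to 6023, 6031 and 5792.

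Within the clusters, the size of the rise varied along the paralogues. In the Hoxb cluster 10 of 10 genes rose, from 5.59 to 9.49 on the log2 scale. In the Hoxa cluster 7 of 9 tested genes rose, with the highest value of 7.20 at Hoxa5 and lower values on both sides. Hoxa10, which is posterior, fell from 24.8, 17.2 and 41.1 normalized counts to 7.21, 8.03 and 8.07 (−1.63 ± 0.49, limma adjusted p = 0.00399). The Hoxc cluster had 6 of 7 genes higher and the Hoxd cluster 5 of 6, and in both the last gene, Hoxc13 (0.28 ± 0.33) and Hoxd13 (0.06 ± 0.41), was not called. Hoxb13 was an exception among the most posterior paralogues, with 32.5, 8.60 and 5.61 in serum/LIF and 648, 643 and 571 after RA (5.59 ± 0.48). Without serum/LIF replicate 1, the highest of its group, its log2 fold change was 6.28. The groups of Hoxc10, at 3.82, 4.30 and 0 against 37.8, 30.1 and 37.7, did not overlap either (3.61 ± 0.68, and 2.83 without serum/LIF replicate 3, where it was at 0).

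**Figure D3:**
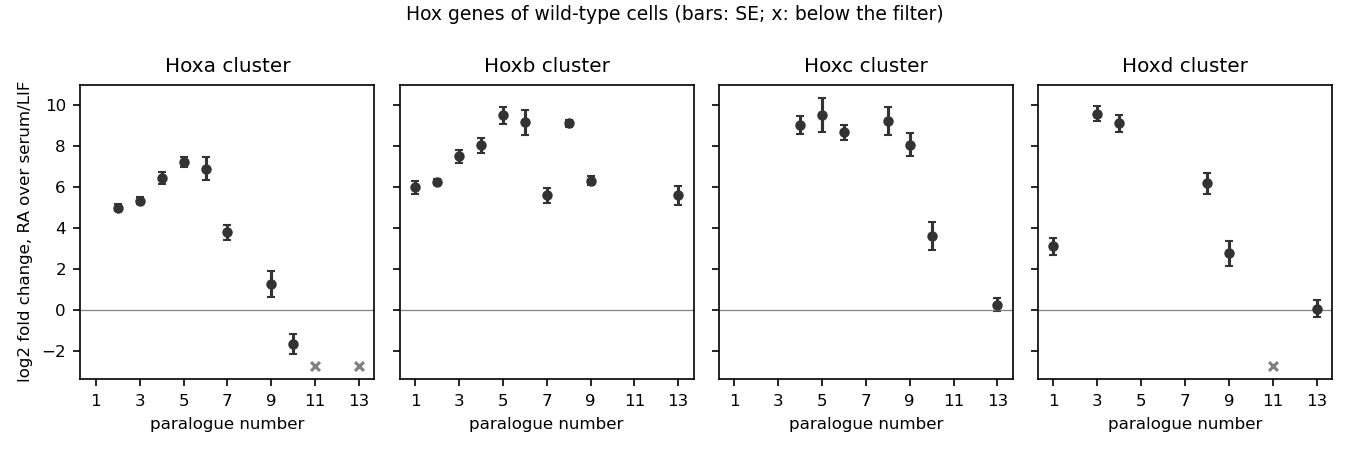
Log2 fold change of 31 of the 32 tested Hox genes in wild-type cells (1 is not drawn), RA over serum/LIF, by paralogue number (x axis) in the 4 clusters. Points are limma estimates with SE bars and crosses mark genes below the filter, drawn at an arbitrary height. The Hoxa values peak at Hoxa5 with 7.20 and fall to −1.63 at Hoxa10, while Hoxb13 lies at 5.59.

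The TALE homeobox proteins bind DNA together with Hox proteins. Their genes rose in 8 of 9 cases, against 41.4% of all genes, with a median of 1.89. Meis2 went from 205, 258 and 188 normalized counts to 9697, 8909 and 9467 (5.44 ± 0.09). Meis1 rose by 5.22 ± 0.08, and the groups of both genes did not overlap. Pknox1 was the member that fell, by 0.33, and with equal totals it was not called (−0.06).

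Genes of pluripotent cells, which the label of ES cells calls for, were abundant in serum/LIF, and nearly all of them fell after RA. Pou5f1 (NM_013633.3_3, chr17:35506032-35510777), which encodes OCT4, stood at 32602, 33912 and 33817 normalized counts in serum/LIF. After RA it was at 420, 466 and 398, which is 78.2-fold lower (log2 fold change −6.29 ± 0.05, limma adjusted p = 8.95e-31). The groups lay far apart, and 1374 Pou5f1 reads were still counted over the 3 RA libraries. Whether some undifferentiated cells were left or all cells held a little transcript cannot be told from bulk RNA. For this and every other gene, fewer cells of a kind and less RNA per cell cannot be told apart.

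Of 15 core pluripotency genes 15 fell, against 39.2% of all genes, with a median of −3.92. Tdh, the threonine dehydrogenase gene of mouse ES cell metabolism, was 302-fold lower, with 14448, 15359 and 15516 in serum/LIF and 54.0, 53.2 and 43.1 after RA. Utf1, a chromatin factor gene of undifferentiated cells, was 113-fold lower. Sox2, which is also a gene of neural progenitors, fell less, from 15964, 15535 and 16530 to 1638, 1692 and 1608 (−3.28 ± 0.04). Lin28a, whose protein blocks let-7 microRNA maturation, kept 8628, 8295 and 8234 of 14568, 14745 and 15541 (−0.83 ± 0.04).

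Of 15 genes of the naive state 14 fell, against 39.2% of all genes, with a median of −5.01. Esrrb (NM_011934.4, chr12:86421644-86521628), an orphan receptor that holds naive pluripotency, went from 12723, 13394 and 12997 normalized counts to 185, 189 and 168 (−6.17 ± 0.07, limma adjusted p = 5.23e-27). Nanog fell 32.1-fold and Zfp42, which encodes REX1, 25.9-fold. Dppa3, a gene of the early embryo and germline, was at 3112, 3168 and 3112 and then at 36.0, 24.1 and 30.5. Tbx3 was the only one of the 15 that rose. It stood at 800, 753 and 728 in serum/LIF and at 894, 960 and 995 after RA, a small rise without overlap (0.32 ± 0.07, limma adjusted p = 0.000147).

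Genes of the formative and primed states, through which ES cells pass towards differentiation, were mixed at 72 hours. Of 15, 4 rose, 10 fell and 1 was not called, beside 41.4% of all genes higher and 39.2% lower. Otx2 (NM_001286482.1, chr14:48657677-48667644), a homeobox gene of the formative state and of the forebrain, had the largest fitted decrease on the log2(value + 1) scale of all called genes whose serum/LIF mean was at least 100, predicted genes left out. It had 1360, 1367 and 1204 normalized counts in serum/LIF and 3.60, 4.01 and 0 after RA, which is 516-fold lower (log2 fold change −8.84 ± 0.47, limma adjusted p = 5.73e-10). Without RA replicate 3, where it was at 0, the value was −8.09. The ETS factor genes Etv4 and Etv5 fell by 6.23 and 5.85. Upward, Sox3, also a neural progenitor gene, rose by 3.31 and Cdh2, the N-cadherin gene, by 2.47. Fgf5, a marker of the primed epiblast, was low in both conditions, with 11.5, 32.2 and 9.35 against 3.60, 8.03 and 19.7 in overlapping groups, and was not called. Without RA replicate 3 it was called lower (−1.33).

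The LIF pathway, whose ligand was left out during treatment, changed in both directions. Of 10 genes 5 rose, 4 fell and 1 was not called (median 0.07), beside 41.4% of all genes higher and 39.2% lower. Pim1 and Pim3, kinase genes that STAT3 induces, fell by 2.16 and 1.10, and the receptor gene Lifr fell by 0.75. Il6st, which encodes the shared receptor chain gp130, rose by 1.21 and Stat3 by 0.67. Socs3, the feedback inhibitor of the pathway, was at 4760, 4744 and 4862 in serum/LIF and at 4205, 4504 and 4307 after RA. The groups did not overlap, but the change of −0.14 ± 0.04 turned to 0.12 with equal totals, so its direction depended on the scaling.

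Genes that pattern the neural tube are given by region, and the difference between regions was not tested. Of 14 hindbrain and spinal cord genes 10 rose, against 41.4% of all genes, 3 fell and 1 was not called. Their median was 3.34. Members near 0 in serum/LIF, such as Dbx1, could pass the filter through the RA libraries, so the count of higher genes is partly set by the filter. Dbx1, of the ventral spinal cord's interneuron progenitors, had 1.91, 2.15 and 1.87 normalized counts in serum/LIF (6 reads in all) and 1195, 1283 and 1116 after RA. It rose by 8.65 ± 0.31. Irx3, a homeobox gene of the cord, rose by 5.01. Olig2, of motor neuron progenitors, moved the other way. It stood at 477, 437 and 491 in serum/LIF and at 5.40, 2.01 and 0 after RA (−7.45 ± 0.42, and −6.74 to −8.08 with 1 RA replicate left out).

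Of 12 forebrain and midbrain genes 5 rose, close to the 41.4% of all genes, 4 fell and 3 were not called (median 0.73). Next to Otx2, the genes Hesx1, En2 and Otx1 fell by 3.28, 2.18 and 1.97. The genes Pax2, Emx2 and Lhx2 rose by 3.29, 3.13 and 2.87. The whole list summed to 1849 to 2126 normalized counts in serum/LIF and to 966 to 1056 after RA. En1 was not called.

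Neural progenitor genes rose in 12 of 16 cases, against 41.4% of all genes, 1 fell and 3 were not called (median 1.60). Hes5, a Notch target of progenitors, rose by 5.55, Zic1 by 3.59 and Pax6 by 3.02. Pax6 stood at 354, 422 and 365 and then at 3238, 2963 and 3040. Sox1, often taken as the first neural marker, barely moved, with 804, 774 and 744 against 894, 938 and 863 (0.21 ± 0.08, limma adjusted p = 0.0122). Without RA replicate 2 it was not called (0.18, limma adjusted p = 0.0514, the highest of a range from 4.11e-06 over 15 alternatives), and Hes6, not called before, was then lower (−0.22), which gave 11 higher and 2 lower. The sign of Hes6 changed over its alternatives, from −0.22 to 0.11.

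Neuron genes were divided. Of 25 tested 14 rose, 8 fell and 3 were not called (median 1.11), beside 41.4% of all genes higher and 39.2% lower. Lhx1, of spinal interneurons, rose from 9.55, 4.30 and 3.74 to 1001, 960 and 1046 (7.29 ± 0.28). Dcx, the doublecortin gene of migrating neurons, rose by 6.25 ± 0.31, and Nefm, a neurofilament gene, by 3.82 ± 0.13. Others were high in undifferentiated cells and fell. Stmn2, a regulator of microtubules, went from 7736, 7773 and 8679 to 360, 420 and 310 (−4.48 ± 0.08), and Tubb3, the tubulin gene widely used to mark neurons, from 6511, 6582 and 7042 to 2258, 2359 and 2017 (−1.60 ± 0.07). Ina, another neurofilament gene, fell by 2.24. Genes of mature neurons were the ones high in RA replicate 2, and Snap25 had a log2 fold change of 2.54 with that library and 1.67 without it. The list's counts were 14 higher and 8 lower without it too, with a median of 1.01.

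Genes of the neural crest, the migratory cells that leave the neural tube, rose in 12 of 14 cases (median 2.68), against 41.4% of all genes. Sox9 led them with 15.3, 10.7 and 13.1 normalized counts in serum/LIF and 1548, 1508 and 1602 after RA, 119 times the mean (6.80 ± 0.14). Prrx1 and Msx1, homeobox genes of crest mesenchyme, rose by 4.72 and 3.93. Ngfr, a surface marker of migrating crest, fell by 1.51, and Sox10, the factor of crest proper, was not called (0.49). Tfap2b was at 0, 4.30 and 9.35 in serum/LIF and at 68.5, 70.2 and 68.2 after RA. Members this low could pass the filter through the RA libraries, so the count of higher genes is partly set by the filter.

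Endoderm genes rose in 22 of 27 cases, against 41.4% of all genes, with 1 lower, 4 not called and a median of 2.03. Gata6, a regulator of primitive endoderm, stood at 34.4, 27.9 and 20.6 in serum/LIF and at 994, 1102 and 1131 after RA (5.26 ± 0.19). Foxa2, of definitive and visceral endoderm and of the floor plate, rose from 1.91, 0 and 1.87 (4 reads) to 186, 161 and 179 (6.44 ± 0.40). Ttr, which encodes the carrier transthyretin, had 0 reads in serum/LIF and 150, 192 and 144 normalized counts after RA, at least 164-fold higher. With Ttr at that bound the median of the list was still 2.03. Members near 0 in serum/LIF, such as Foxa2 and Ttr, could pass the filter through the RA libraries. The count of higher endoderm genes is therefore partly set by the filter. Amn, a gene of absorptive visceral endoderm, was the one that fell, by 1.35. Without RA replicate 2, Lrp2, a receptor gene of the same cells, was called higher (0.15), making 23.

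Mesenchyme and fibroblast genes rose in 16 of 18 cases (median 2.41), against 41.4% of all genes. Among the collagens, Col6a1 rose by 4.44, Col3a1 by 4.21 and Col1a1 by 3.12, the last from 2273, 2319 and 2297 to 19227, 19962 and 20652. Lum and Dcn, which encode small proteoglycans of the matrix, rose by 4.16 and 4.02. Over the alternatives Lum ran from 2.72 to 4.80 and Dcn from 3.80 to 4.27. Fn1, the fibronectin gene, fell by 0.57 and Thy1 by 2.52. Thy1 is also a neuronal gene and was high in RA replicate 2, and without that library it was at −3.45. The growth protocol names gelatin and no feeder cells, and which cells these transcripts came from was not tested.

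Mesoderm and trophoblast genes were less uniform. Of 17 mesoderm genes 9 rose, 5 fell and 3 were not called, beside 41.4% of all genes higher and 39.2% lower. Foxc2, of paraxial mesoderm, rose from 11.5, 0 and 16.8 to 1507, 1629 and 1563 (8.01 ± 1.06, and 6.72 to 8.79 with 1 serum/LIF replicate left out). The gastrulation gene T, or Brachyury, was low in both conditions and fell, from 31.5, 22.6 and 26.2 to 3.60, 12 and 2.69 (−2.18 ± 0.44). Of 16 trophoblast genes 8 rose, 5 fell and 3 were not called, beside the same shares of all genes. The members that rose most were keratins of simple epithelia and Gata3, which other epithelia also express. Krt19 went from 136, 131 and 129 to 7545, 7842 and 7005 (5.81 ± 0.08), and Krt8 and Krt18 rose by 4.51 and 4.32. Tfap2c and Tead4, regulators of the trophoblast lineage, fell by 3.93 and 2.14. Without RA replicate 2, 8 mesoderm genes were higher and 4 lower, and 6 trophoblast genes were lower.

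**Figure D4:**
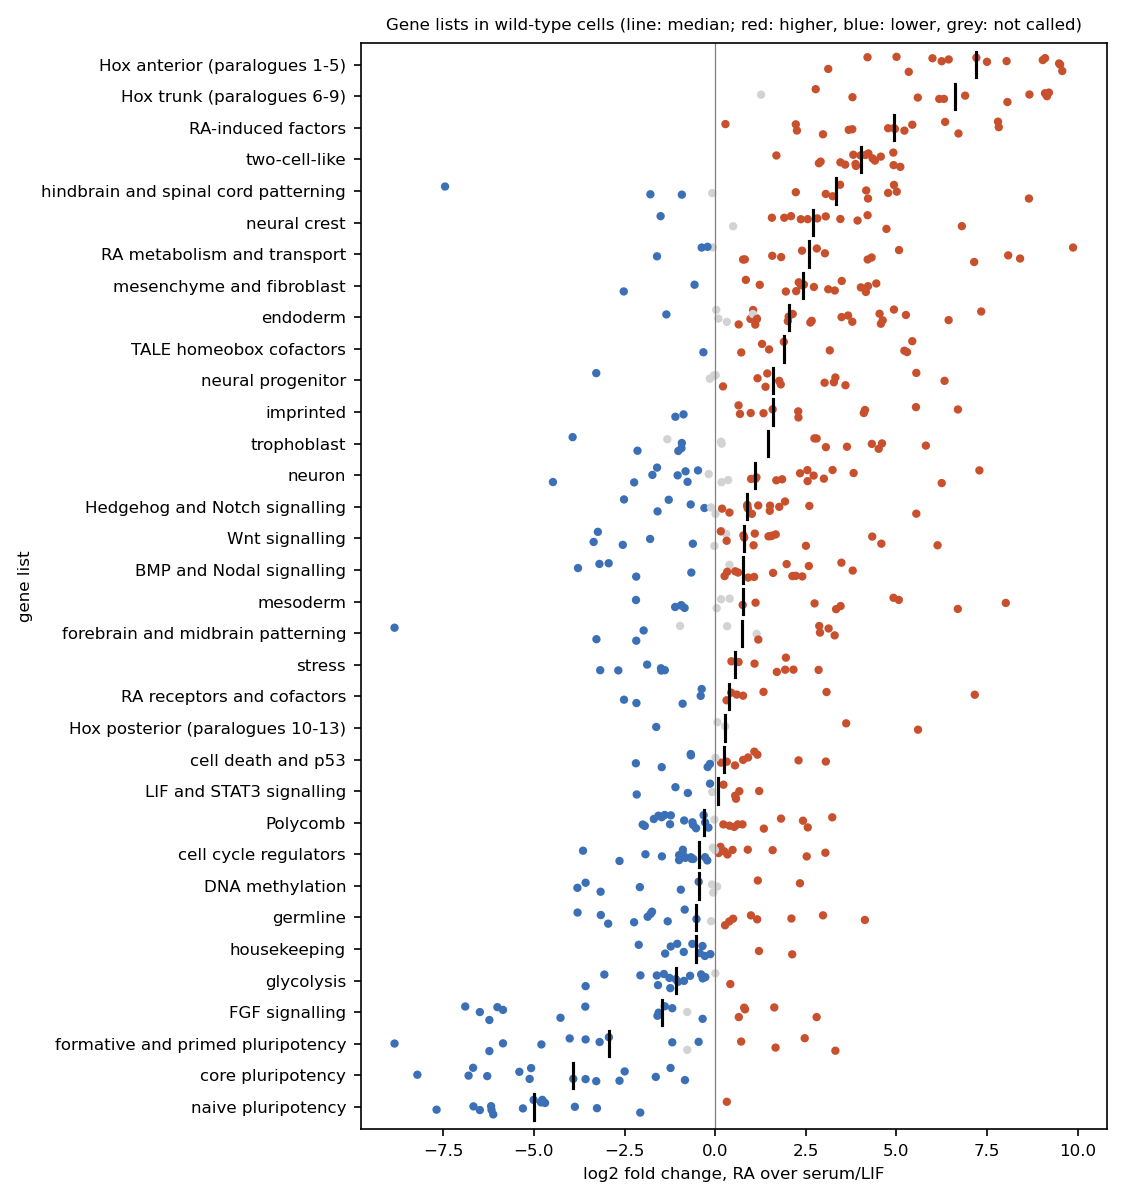
Log2 fold change, RA over serum/LIF, of each tested gene (points, red higher, blue lower, grey not called) in 34 gene lists, ordered by the list median (black line). The medians run from −5.01 for naive pluripotency to 7.20 for the anterior Hox genes, beside 0.04 over all genes tested.

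Genes of the 2-cell-like state, a rare state of ES cells that resembles the early embryo, rose together. Of 20 genes with values 3 were below the filter, and 17 of the 17 tested rose, against 41.4% of all genes (median 4.01). Members low in serum/LIF could pass the filter through the RA libraries, so this count is partly set by the filter. Zfp352, for example, was at 3.82, 0 and 1.87 in serum/LIF and at 78.4, 58.2 and 80.7 after RA. The whole list summed to 279 to 361 normalized counts in serum/LIF and to 5480 to 5709 after RA. Zscan4d, a telomere-linked zinc finger gene of that state, stood at 33.4, 38.7 and 31.8 and then at 1107, 1103 and 999 (4.91 ± 0.42). Zfp352 rose by 4.92, Usp17lb by 5.11 and Tcstv3 by 4.57. The Zscan4, Tcstv and Usp17l genes are sets of near-identical copies, so the split of reads within each set is uncertain and the members are not independent. Without RA replicate 2, 16 of the 17 were called higher.

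Of 19 germline genes 8 rose, close to the 41.4% of all genes, 10 fell and 1 was not called. Of all genes 39.2% fell, and the list median was −0.52. The 2 largest rises were those of meiosis genes: Rec8, the meiotic cohesin, went from 1001, 982 and 1008 to 17409, 17692 and 17275 (4.13 ± 0.05), beside Stra8. Some other meiosis genes fell. Sycp3, of the synaptonemal complex, was 7.76-fold lower, and Hormad1, of the chromosome axis, fell by 3.80 on the log2 scale. Nanos3, which primordial germ cells need to survive, was 9.22-fold lower.

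Genes of chromatin regulators moved both ways. Of 11 genes of DNA methylation 6 fell, 2 rose and 3 were not called, beside 39.2% of all genes lower and 41.4% higher. The de novo methyltransferase gene Dnmt3b went from 17554, 17785 and 17980 normalized counts to 1546, 1452 and 1476 (−3.57 ± 0.04), and its cofactor Dnmt3l was 8.95-fold lower. Of the dioxygenases that oxidise 5-methylcytosine, Tet1 and Tet2 fell by 3.80 and 2.08 and Tet3 rose by 2.34. Dnmt1, the maintenance enzyme gene, was at −0.06 and not called, and at 0.21 with equal totals. Without RA replicate 2, Mbd3 joined the lower genes (−0.15), and with equal totals it was higher. Of 26 Polycomb genes 10 rose and 15 fell (median −0.30), beside the same shares of all genes. The CBX reader gene Cbx8 rose by 2.42 and Bmi1, a PRC1 subunit gene, by 2.55. Epop and Jarid2, which encode partners of PRC2 in ES cells, fell by 2.00 and 1.94.

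Signalling genes are given by pathway, beside the 80.6% of all genes that were called (41.4% higher and 39.2% lower). Of 18 FGF pathway genes 12 fell, 5 rose and 1 was not called (median −1.47). The ligand gene Fgf4, made by pluripotent cells, went from 5688, 5870 and 5620 normalized counts to 66.6, 64.2 and 57.4, which is 91.2-fold lower (−6.49 ± 0.08). Spry4, a feedback inhibitor that FGF signalling induces, went from 3328, 3324 and 3179 to 32.4, 20.1 and 28.7 (−6.89 ± 0.15). The receptor genes moved the other way, with Fgfr2 higher by 2.80 and Fgfr3 by 1.63.

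Of 20 genes of BMP and Nodal signalling 14 rose, 5 fell and 1 was not called (median 0.77). Nodal fell, at −2.18, as did its feedback antagonists Lefty1 and Lefty2, at −2.94 and −3.78. Bmp4 fell by 3.19 while Bmp2 rose by 3.79, and Id1, Id2 and Id3, targets of BMP signalling, rose by 2.40, 3.48 and 2.58. Id4, of the same gene family, was called lower. It lay at −0.79 to −0.40 over 15 alternatives and was called in 13 of them. Of 22 Wnt pathway genes 14 rose, 5 fell and 3 were not called (median 0.79). Lgr5, a receptor gene for R-spondins, rose by 6.13, Rspo3, one of those ligands, by 4.58 and the ligand gene Wnt5a by 4.33. Fzd5, Wnt8a and Wnt3a fell by 3.35, 3.24 and 2.55. Without RA replicate 2, 13 BMP and Nodal genes and 13 Wnt genes were higher. Of 20 Hedgehog and Notch genes 13 rose, 5 fell and 2 were not called. The ligand gene Shh was low throughout, at 1.91, 0 and 3.74 in serum/LIF (6 reads) and 10.8, 18.1 and 12.6 after RA. It rose by 2.60 ± 0.81 (1.97 without serum/LIF replicate 2). Gli1, a target of the Hedgehog pathway, fell by 2.52.

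Among 26 cell cycle genes 15 fell, 9 rose and 2 were not called (median −0.44), beside 39.2% of all genes lower and 41.4% higher. Ccnd1 and Ccnd2, both D cyclin genes, moved in opposite directions. Ccnd1 went from 5756, 6004 and 6356 normalized counts to 483, 486 and 476 (−3.65 ± 0.05), and Ccnd2 from 622, 590 and 576 to 3480, 3441 and 3368 (2.52 ± 0.07). The MYC family genes Mycn and Myc fell by 2.64 and 1.92, and the cyclin-dependent kinase inhibitor genes Cdkn2c and Cdkn1c rose by 3.04 and 1.58. With equal totals the list had 11 higher and 13 lower. Of 16 genes of cell death and p53, 9 rose and 6 fell, beside the same shares of all genes. Fas and Casp8, of death receptor signalling, rose by 3.05 and 2.30, while Pmaip1, which encodes NOXA, and Trp53 fell by 2.19 and 1.47.

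Glycolytic genes fell in 15 of 17 cases, with 1 higher and 1 not called (median −1.09), against 39.2% of all genes. Pfkp, a phosphofructokinase gene, went from 4782, 4976 and 4678 to 466, 397 and 353 (−3.57 ± 0.08). Pdk1, a pyruvate dehydrogenase kinase gene, fell by 3.06, the glucose transporter gene Slc2a3 by 2.06 and Ldha by 1.61. Hk1, a hexokinase gene, was the one that rose, by 0.42. Genes commonly used as references fell as well, in 10 of 12 cases with a median of −0.53. Hprt fell by 2.11, Ppia by 1.38 and Actb by 1.23, while B2m, of antigen presentation, rose by 2.12. With equal totals 14 glycolytic genes were lower and 2 higher, and 8 of the reference genes were lower and 3 higher.

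Imprinted genes, read from 1 parental copy, rose in 11 of 13 cases, against 41.4% of all genes, with a median of 1.58. Igf2, a fetal growth factor gene, went from 590, 699 and 614 normalized counts to 29754, 28350 and 30259 (5.54 ± 0.05). Dlk1 rose from 126, 138 and 144 to 13633, 14946 and 13905, which is 104 times the mean (6.69 ± 0.11). Peg10, derived from a retrotransposon, was already at 13752, 13638 and 13292 and reached 235816, 209110 and 254192 (4.10 ± 0.05). Phlda2 and Grb10, both growth-restraining genes, fell by 1.10 and 0.87. Of 14 stress genes 8 rose and 6 fell, beside 41.4% of all genes higher and 39.2% lower. The immediate early genes Jun and Egr1 rose by 2.85 and 2.16, and Trib3, Chac1 and Asns, of the amino acid response, fell by 3.17, 2.67 and 1.88.

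Some of the largest changes lay outside these groups. Pparg, the receptor gene of fat cell differentiation, had 0 reads in serum/LIF and 439, 403 and 393 normalized counts after RA, at least 418-fold higher. Pirt, a gene of sensory ion channel regulation, went from 219, 240 and 211 to 0 reads in all 3 RA libraries, at least 240-fold lower. The groups of Vrtn, a gene linked to vertebral number, were at 370, 396 and 407 and at 1.80, 2.01 and 0 (−7.59 ± 0.56). Nphs1, which encodes nephrin of the kidney filter, was 151-fold lower, with 975, 855 and 940 against 9.01, 4.01 and 5.38. Accsl and Crisp1 fell by 7.56 and 7.24 on the log2 scale.

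Repeats, copies of mobile and other repeated DNA counted by name over the whole genome, also differed. Of 1170 repeat names tested 585 (50%) were called, 289 of them higher (24.7%) and 296 lower (25.3%), while 85 rose (7.26%) and 91 fell (7.78%) by at least 1 on the log2 scale. The repeat table has size factors of its own. With those of the gene table, 155 were higher and 558 lower and the median moved from −0.01 to −0.34. Changes of at least 1 moved with it, to 51 higher and 164 lower, so both counts depend on that choice. Ribosomal RNA repeats, high in RA replicate 2, took 41.7% of the repeat signal there and 4.41% to 6.72% in the other wild-type libraries. Whether reads at these names come from autonomous repeat transcripts or from repeats inside genes was not tested.

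Endogenous retroviruses went in both directions. MERVL-int, the internal part of the retrovirus active at the 2-cell stage, rose from 2008, 1817 and 1631 normalized counts to 13516, 13136 and 13190 (2.87 ± 0.06, limma adjusted p = 2.02e-23). Its promoter repeat MT2_Mm rose by 1.67 ± 0.07. MMVL30-int, of the VL30 elements, went from 959, 911 and 986 to 12086, 11562 and 11657, which is 12.4 times the mean (3.63 ± 0.05), and its terminal repeat RLTR6_Mm rose by 3.52 ± 0.11. The groups of each of these names lay apart.

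The early transposon family fell. MMETn-int stood at 47456, 43701 and 41256 in serum/LIF and at 2342, 2058 and 2213 after RA, 20.03-fold lower (−4.32 ± 0.05, limma adjusted p = 9.67e-19). ETnERV-int fell by 3.50 ± 0.05 and ETnERV2-int by 2.71 ± 0.08. RLTR9E, a terminal repeat active in ES cells, fell from 2040, 2066 and 2171 to 673, 647 and 627 (−1.69 ± 0.06), and IAPEY3-int fell by 1.75. The common intracisternal A particle, IAPEz-int, was at 3886, 4059 and 3312 and at 4180, 4121 and 4323. It was called higher by 0.17 ± 0.05, but it was not called without serum/LIF replicate 3 (0.08) or without RA replicate 3 (0.15), and over its alternatives the sign changed.

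The other retroelements and satellites moved less or in single names. Of the young LINE-1 families, L1Md_T rose by 0.67 ± 0.04 and L1Md_Gf by 1.31 ± 0.12, and L1Md_A was not called (0.12 ± 0.06; called without RA replicate 1, at 0.17, and at −0.21 with the gene table's size factors). The major satellite GSAT_MM went from 42.0, 32.6 and 41.6 to 204, 155 and 175 (2.17 ± 0.22). The SINE B2_Mm1a fell from 16261, 17419 and 19081 to 8589, 8526 and 8311 (−1.05 ± 0.06), and B1_Mm was not called, with 15543, 15422 and 15840 against 15481, 15415 and 15171. A few more names had large changes: the simple repeat (ATAAG)n rose by 4.48, ERVB4_1-I_MM-int rose by 4.39, and L1MEi fell from 9085, 8876 and 9235 to 380, 336 and 360 (−4.66 ± 0.06).

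**Figure D5:**
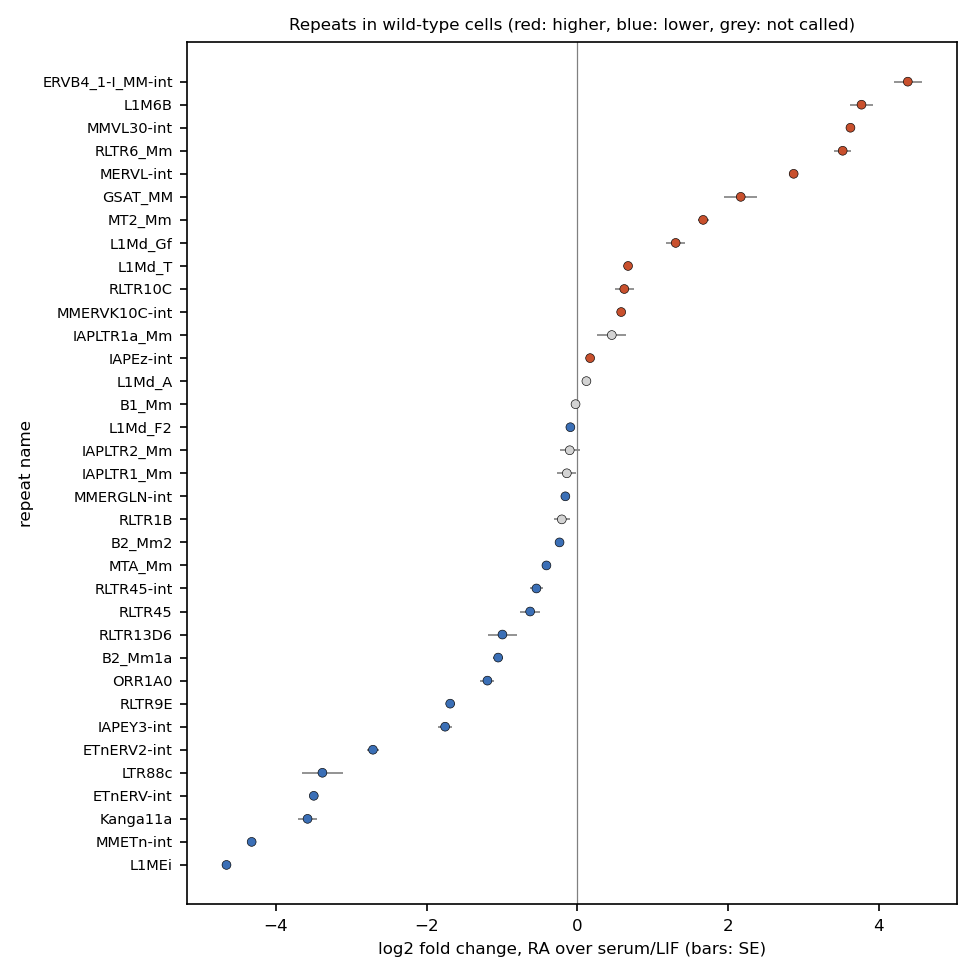
Log2 fold change with SE bars, RA over serum/LIF, of 35 named repeats in wild-type cells (red higher, blue lower, grey not called; the simple repeat left out). MMVL30-int lies at 3.63 and MERVL-int at 2.87, while MMETn-int lies at −4.32.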

How the data were processed

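Total RNA of 3 libraries per group was sequenced as paired-end reads, per the labels' protocols. Tools listed in the submitters' processing notes are STAR 2.7.11b, Trim Galore 0.6.10, DESeq2 1.44.0 and featureCounts (Subread 2.0.6), with mm10 as build. The sources used here give neither strand nor the treatment of reads mapping to several places, so antisense partners, overlapping genes and near-identical copies are uncertain. The deposited library columns hold a signal, normalized counts: 100% of values were whole reads divided by a size factor, within 0.01 of a read. Per the file headers, the authors' table also holds log2 fold changes and p-values, of which adjusted p-values and signs were counted.

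Values were taken as log2(value + 1), so a fold change of a low gene is understated. A feature was kept where at least 3 of the 12 libraries had values from 10 upward: 15750 of 17901 genes, with 2151 below the filter, and 1170 of 1387 repeats. limma 3.58.1 in R 4.3.3 (empirical Bayes, trend, robust) fitted 1 mean per group over 12 libraries with Benjamini-Hochberg adjustment over all features; the code was tested on simulated data. Ratios are of group means, the SE is limma's with 3 libraries per group, and folds against 0 reads use 3 counts over the group and cover counting error only. Alternatives were other pseudocounts and filters, the 6 wild-type libraries alone, equal totals, edgeR 4.0.16 and DESeq2 1.42.0 on recovered reads, a replicate block and leaving out each library. Added after seeing the data were the gene table's size factors for repeats, leaving out ribosomal RNA repeats, equal repeat totals without RA replicate 2, and the brain gene list.

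Members and the 34 gene lists were chosen with earlier results of these data known. Named genes were those of a panel of 52 and of a genotype panel of 12, the 12 higher and 12 lower called genes with the largest change, a mean of 100 or more and no overlap, up to 4 called members each way of every list and up to 2 not called; the text names part of these, and a few are not reported here. Genes named outside the rule were chosen after their values were seen. Repeats came from a list and the 5 with the largest change each way. Promoters are RefSeq's (GRCm38.p6).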

Additional observations from a re-analysis of the deposited data

Results flagged for a closer look

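For 8 of the 12 genes of the genotype panel the RA response of wild-type cells differed from that of DKO cells by the interaction term of the limma fit (30.8% of all genes tested passed it). Pluripotency genes fell further in wild type: the wild-type log2 fold change minus that of DKO was −1.64 ± 0.07 (SE; limma adjusted p = 1.35e-14) for Pou5f1, −1.54 ± 0.10 for Esrrb (5.06e-11 for the same limma adjusted p) and −2.46 ± 0.66 for Otx2 (limma adjusted p = 0.0135). Induced genes rose less in wild type, by −0.39 for Cyp26a1 (limma adjusted p = 0.0292), −0.89 for Cdx1 (limma adjusted p = 0.0191) and −1.73 for Stra8. Sox1, nearly level in wild type, fell by 1.95 in DKO, a difference of 2.17, and Tubb3 fell further in DKO, a difference of 1.17. For Hoxb5, Zscan4d, Gata6 and Dnmt3b the difference did not pass (0.0731 to 0.85 as limma adjusted p), which does not show that the responses were alike.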

How the results depend on the processing

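The gene counts stayed within 1.5 times their main value under every alternative run: 12315 to 12418 genes were called with 1 wild-type library left out, 12721 with edgeR's quasi-likelihood test, 12711 with DESeq2, 13187 without a filter and 11525 with a filter at a value of 50. The replicate numbers did not pair the samples (correlations of −0.0144 to 0.0129 between deviations of wild-type libraries), and the replicate block gave 12651 genes and 582 repeats. Repeat counts were 530 to 549 with 1 library left out. With equal totals 383 repeats were called, 121 of them higher; with equal totals and without RA replicate 2, a setting chosen after seeing the data, 547 were called, 291 of them higher and 256 lower. With the gene table's size factors 155 were higher and 558 lower, or 51 and 164 by at least 1 on the log2 scale; the cause of that shift was not tested. Equal totals also changed the sign of Gbx2 (0.18), E2f1 (0.20), Fabp5 (0.048), Tcf7l1 (0.24), Plk1 (0.25), Dnmt1 (0.21), Mbd3 (0.17), Socs3 (0.12), Dgat1 (0.20) and IAPEz-int (−0.027), and the gene table's size factors that of L1Md_A (−0.21) and IAPEz-int (−0.16). Listed are only genes and repeats of the naming rule that were called in at least 1 of the settings compared. Changes of sign without a call are left out. Below about 10 normalized counts a gene rests on few reads, and its fold change depends on the pseudocount.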
